A study of Mus musculus with 36 samples.

Results

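Alad, the gene of the heme synthesis enzyme aminolevulinate dehydratase, was followed across a mouse heart array series together with its chromosome 4 neighbours Hdhd3 and Pole3 and with 6 other heme synthesis genes, Alas1, Uros, Urod, Cpox, Ppox and Fech. These 9 genes were taken by symbol from 18193 genes with a probe set. Alad, Hdhd3 and Pole3 were chosen from the measured values of these same arrays, so their values are a description and carry no test. The other 6 genes were tested in a fit over all genes. Together the 9 genes had 22 probe sets, of which 17 passed the filter on low signals, and each gene had at least 1 that passed. Values below are those of the brightest probe set of a gene unless another is named.

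The 36 arrays measured left ventricle RNA in 13 groups of 2 or 3. Per the labels, 3 mouse lines on a C57black background held HRas-v12, MKK3bE or MKK7D as a floxed transgene behind the αMHC promoter, which is active in heart muscle cells, and each line was crossed to αMHC-Mer-Cre-Mer mice, whose Cre recombinase is activated by tamoxifen. HRas-v12 is an active Ras protein, MKK3bE an active kinase upstream of p38 and MKK7D an active kinase upstream of JNK. Double transgenic mice and the littermates labelled non-transgenic all received tamoxifen, 20 mg/kg daily for 3 days from 12 weeks of age. Early hearts were taken 4 to 7 days after the first injection and late hearts after 2 to 4 weeks. Control males (3 arrays) and control females (3 arrays) carry no time in their titles and served HRas-v12 (early 2 females and 3 males, late 3 of each) and MKK3bE (early 2 females, late 2 females and 3 males). MKK7D hearts were female, with 3 transgenic and 3 control arrays at each time. Nothing in the labels ties each array to its own animal, and p-values therefore cover only array-to-array spread, which may be technical. The littermate controls carry neither transgene per the labels, so effects of activated Cre and of the kinase cannot be told apart.

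Heme, the iron-bearing ring of hemoglobin, myoglobin and the cytochromes, is made in steps that begin and end in the mitochondrion. Alas1 makes aminolevulinate and is the rate-limiting enzyme outside red cells. Alad joins aminolevulinate molecules into porphobilinogen in the cytosol, Uros and Urod shape the porphyrin ring there, Cpox and Ppox oxidise it, and Fech inserts iron. The heart, rich in mitochondria and myoglobin, has a high demand for heme. Hdhd3 encodes a hydrolase-like protein of the haloacid dehalogenase family, and Pole3 a histone-fold subunit of DNA polymerase epsilon. Inbred mouse strains are known to differ in the copy number of a chromosome segment that holds Alad, and the genotype of these mice at the locus was not tested.

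The start regions of Alad, Hdhd3, Alas1 and Urod are shown because these genes carry the differences described below. They are RefSeq windows on build GRCm38.p6, from 250 bases before to 50 bases after an annotated start, read 5′ to 3′ on the gene's own minus strand. Alad has 2 annotated starts, at chr4:62520014-62520313 and chr4:62519860-62520159, and these windows share 146 bases. Hdhd3 is at chr4:62502151-62502450, Urod at chr4:116994364-116994663 and the second Alas1 window at chr9:106247681-106247980. Capitals mark the E-box CACGTG, a site that clock factors and USF and Myc proteins are known to bind, or, in Alas1, the NRF1 site, named for a regulator of mitochondrial genes.
Alad start 1: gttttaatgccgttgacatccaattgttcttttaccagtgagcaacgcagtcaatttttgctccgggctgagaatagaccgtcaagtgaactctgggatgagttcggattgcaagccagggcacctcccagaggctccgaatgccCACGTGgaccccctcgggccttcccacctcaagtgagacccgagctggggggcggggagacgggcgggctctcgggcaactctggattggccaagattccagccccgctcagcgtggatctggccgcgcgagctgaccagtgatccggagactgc
Alad start 2: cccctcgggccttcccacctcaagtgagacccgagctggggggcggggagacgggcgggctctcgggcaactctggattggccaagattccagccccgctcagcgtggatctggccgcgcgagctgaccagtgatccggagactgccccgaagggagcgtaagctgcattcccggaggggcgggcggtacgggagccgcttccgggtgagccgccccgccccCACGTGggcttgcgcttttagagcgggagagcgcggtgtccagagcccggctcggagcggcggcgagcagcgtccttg
Hdhd3: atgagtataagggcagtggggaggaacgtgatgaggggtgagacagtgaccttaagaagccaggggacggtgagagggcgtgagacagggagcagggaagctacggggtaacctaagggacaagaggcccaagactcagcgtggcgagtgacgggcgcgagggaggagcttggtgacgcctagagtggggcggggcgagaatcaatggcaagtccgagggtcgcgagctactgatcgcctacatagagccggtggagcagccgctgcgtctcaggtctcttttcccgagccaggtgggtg
Urod: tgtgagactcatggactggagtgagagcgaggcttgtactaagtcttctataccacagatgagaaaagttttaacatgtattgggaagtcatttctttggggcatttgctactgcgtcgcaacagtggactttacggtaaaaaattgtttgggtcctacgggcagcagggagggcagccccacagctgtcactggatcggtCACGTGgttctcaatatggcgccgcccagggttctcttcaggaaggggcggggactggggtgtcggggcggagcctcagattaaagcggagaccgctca
Alas1 start 2: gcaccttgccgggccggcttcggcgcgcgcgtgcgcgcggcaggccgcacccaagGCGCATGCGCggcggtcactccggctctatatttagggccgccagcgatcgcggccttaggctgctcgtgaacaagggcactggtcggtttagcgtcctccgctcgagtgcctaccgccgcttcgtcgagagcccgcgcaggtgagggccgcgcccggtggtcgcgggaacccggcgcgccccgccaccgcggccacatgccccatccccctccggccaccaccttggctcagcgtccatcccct

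Each of the Alad windows held its own E-box, at -105 from the first start and at -28 from the second. Fech was not looked up. The other 8 genes all matched, with 11 windows, and 7 motifs were searched on both strands. The E-box CACGTG was found in 3 genes (Alad, Urod at -49 and Uros at -250, the outermost base of its window) and in 7.15% of 32851 windows of all genes. The NRF1 site was found in Alas1 alone and in 0.971% of all windows. No window of the 8 genes held the AP-1 site TGANTCA, found in 7.81% of all windows, or the cyclic AMP response element TGACGTCA, found in 1.79%. The GC box GGGCGG was in 6 genes and in 35.7% of all windows. AGATAA was found in Cpox (11.2% of all windows) and AGGTCA in Hdhd3 (16.3%). The Hdhd3 window held no CACGTG. A gene was counted if any of its windows matched, and Alad, Alas1 and Uros had 2 windows each. The shares are of single windows, so gene counts and shares are unlike measures.

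Some arrays went against their labels. Esr1 encodes the estrogen receptor, a mutant form of which makes up the Mer parts of the driver. It read 294 to 832 in the shared controls apart from control female 2, which read 7943, and 294 to 7288 in early MKK7D controls. Among transgenic arrays the one labelled HRas-v12 early female 3 (688) and those labelled HRas-v12 late male 1 (2915) and 3 (1327) lay below 7943. Of these 3, only the first lay within the range of the other shared controls. Of the other transgenic arrays, the early HRas-v12 males were lowest (12437 to 21172). The arrays labelled MKK7D late control 8 and 9 read 106402 and 91291, within the range of transgenic hearts. Eif2s3y, a Y-linked gene, was at 6018 in the array labelled MKK7D early control 1, as in males (4216 to 6032). The main results that rest on these 6 arrays are given with and without them. Leaving them out leaves 1 array in the HRas-v12 female early, HRas-v12 male late and MKK7D control late groups, and a lone array is taken to vary as the others do. In bulk tissue, fewer cells of a type and less RNA per cell cannot be told apart. Ventricular muscle markers fitted the labelled tissue, with a summed signal over 8 genes of 801157 or more in every array, while the 3 markers of liver, an organ with high heme synthesis, were all below the filter.

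Alad was lowest in early MKK7D hearts. Its signal was 4938, 3452 and 3473 in the 3 early MKK7D arrays and 20697, 16529 and 21625 in their early controls. The early groups did not overlap, and the fitted difference was -2.31 on the log2 scale (SE 0.36), 4.97-fold lower. For scale, 12.1% of the 12626 genes had early MKK7D arrays all below their controls, and nothing is read from that share because the genes were chosen on these values. Without the control array of doubtful sex the difference was -2.27. A second, dimmer Alad probe set was lower by the same contrast, by -1.46. Alad ranked 5th of 12626 genes from the lowest difference.

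Late MKK7D hearts were less low. Alad read 7757, 7693 and 3217 in late MKK7D arrays and 7432, 10146 and 10957 in late controls. These groups overlapped, with 1 transgenic array far below the others. The difference was -0.70 (SE 0.36), and -0.28 without late replicate 15, the low array. Without the doubted controls it was -0.92, against 1 control array. The late difference was above the early one by 1.61 (SE 0.52).

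The MKK7D controls differed from each other too. Late minus early, their Alad difference was -1.05 (SE 0.36), with no overlap, as for 8.79% of all genes in this direction, and -0.79 without the doubted arrays. Early MKK7D controls stood 0.28 above control females (13726, 19138 and 15673), and these groups overlapped. The late controls differed from control females by -0.77, with no overlap, as for 16.9% of all genes in this direction. The late MKK7D arrays themselves were 0.56 above the early MKK7D arrays (SE 0.36), and these groups overlapped.

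In HRas-v12 hearts Alad was read by time and sex, and differences between times or sexes were not tested. The early females read 14042 and 16892, within the range of control females, and the early males 8910, 6048 and 9620 against 12201, 15803 and 8197 in control males. The mean difference early was -0.30 (SE 0.27), and -0.36 without female early replicate 3. Late females read 10369, 3995 and 8267, all below the control females, as for 15% of all genes, and late males 10820, 7122 and 11681. The late difference was -0.73 (SE 0.26), and -0.59 without the doubted arrays. Without them late minus early was -0.23, and the early male minus female difference was -0.34.

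In MKK3bE hearts Alad was 8088 and 10625 in the early females, below all 3 control females, as for 22.6% of all genes. Late females read 5974 and 7474, also below all control females, as for 19.4% of all genes, and late males 4142, 12315 and 11519, which overlapped the control males. The difference was -0.79 early (SE 0.41) and -0.87 late (SE 0.27). Late it was -0.61 without male late replicate 2, the low array. The dimmer Alad probe set gave -0.33 early and -0.65 late.

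**Figure D1:**
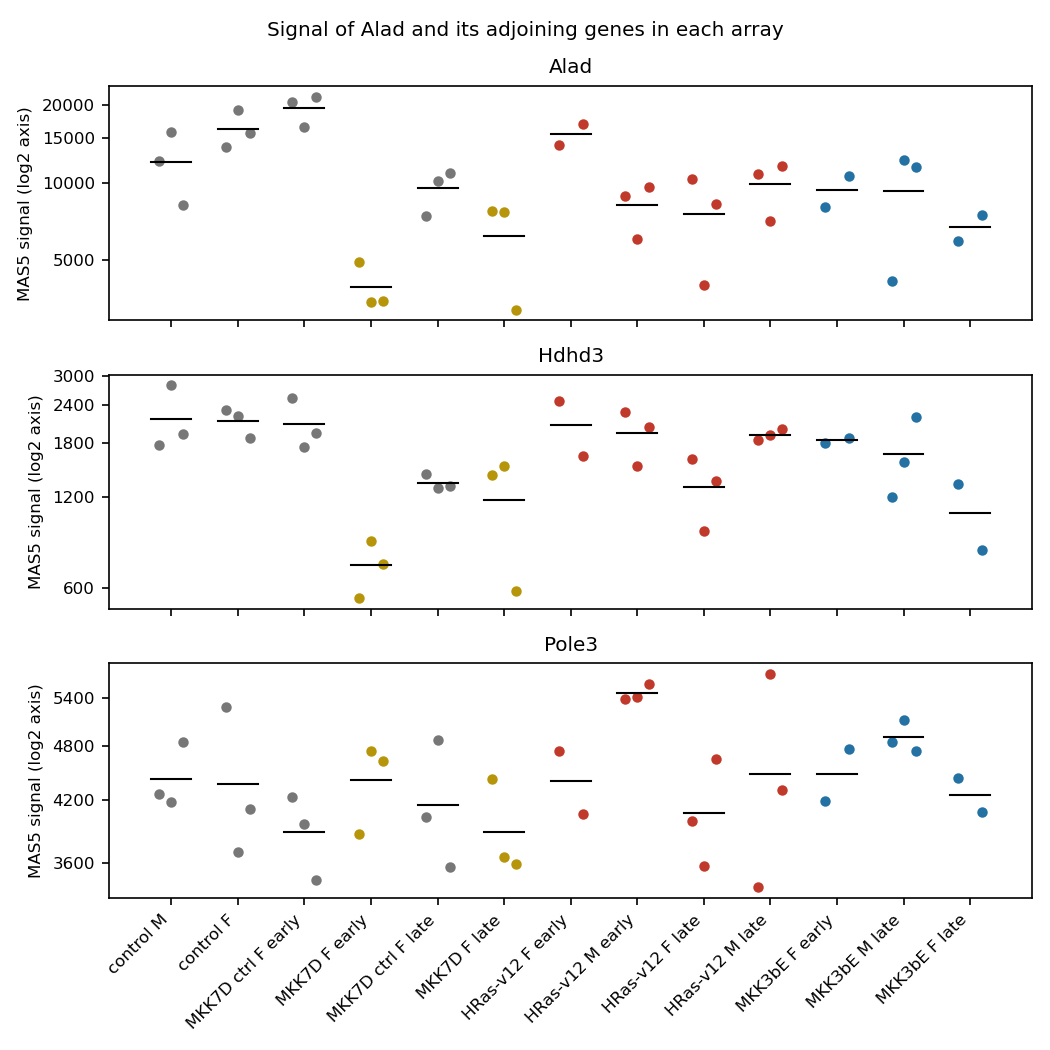
MAS5 signal (log2 axis) of Alad, Hdhd3 and Pole3 in each of the 36 arrays by group, with points for arrays and bars for group means. The 3 early MKK7D arrays lie below every control array for Alad (3452 to 4938) and Hdhd3 (554 to 860), and lie among the controls for Pole3.

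Ordered by group mean, Alad ran from 19617 ± 2714 (SD, n = 3) in early MKK7D controls through 16179 ± 2741 (SD, n = 3) in control females, 15467 ± 2015 (SD, n = 2) in early HRas-v12 females and 12067 ± 3805 (SD, n = 3) in control males. Then came late HRas-v12 males, late MKK7D controls, early MKK3bE females, late MKK3bE males, early HRas-v12 males and late HRas-v12 females, between 9874 and 7544. Late MKK3bE females (6724 ± 1061, SD, n = 2), late MKK7D (6222 ± 2603, SD, n = 3) and early MKK7D (3954 ± 852, SD, n = 3) were lowest. Each neighbouring pair in this order overlapped. Of the 24 transgenic arrays, 9 read below the lowest of the 12 control arrays (7432), and none read above the highest. That lowest control was the doubted MKK7D late control 8, and the next was control male 5 (8197). Late MKK7D 13 and 14, early MKK3bE female 1 and late MKK3bE female 3 lay between these 2 controls.

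Hdhd3, the gene next to Alad, showed a like pattern at a lower signal. It read 554, 860 and 720 in early MKK7D arrays and 2534, 1751 and 1953 in their controls. The groups did not overlap, and the difference was -1.51 (SE 0.29), 2.85-fold lower, or -1.36 without the control array of doubtful sex. Late MKK7D arrays read 1410, 1515 and 586 against 1420, 1279 and 1299, a difference of -0.29 (SE 0.29) that turned to 0.13 without replicate 15. Late MKK7D controls were below the early ones by -0.61 (SE 0.29), without overlap, and by -0.50 without the doubted arrays.

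In the other lines the Hdhd3 difference was further below 0 late than early. In late MKK3bE hearts the difference from control was -0.71 (SE 0.21), with females at 1324 and 801 and males at 1198, 1566 and 2200. In late HRas-v12 hearts it was -0.44 (SE 0.20), with females at 1594, 927 and 1350 and males at 1838, 1920 and 2003. Control females read 2321, 2215 and 1877 and control males 1772, 2796 and 1924, so the late HRas-v12 males lay within the control range. The early differences were -0.21 (SE 0.32) for MKK3bE and -0.11 (SE 0.21) for HRas-v12, the latter 0.04 without female early replicate 3.

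Low Alad and low Hdhd3 fell in the same arrays. Of the 24 transgenic arrays 7 read below every control for Hdhd3, and 6 of these were also below every control for Alad. These 6 were the 3 early MKK7D arrays, late MKK7D replicate 15, late HRas-v12 female replicate 3 and late MKK3bE male replicate 2. The other, late MKK3bE female replicate 3, read 7474 for Alad, above the doubted MKK7D late control 8 (7432) and below the other controls. Over the 36 arrays the log2 values of both genes had a Pearson r of 0.79, and of 0.58 once each group's mean was taken off. The points share groups and arrays, and early MKK7D lies at 1 end, so r is a description.

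**Figure D2:**
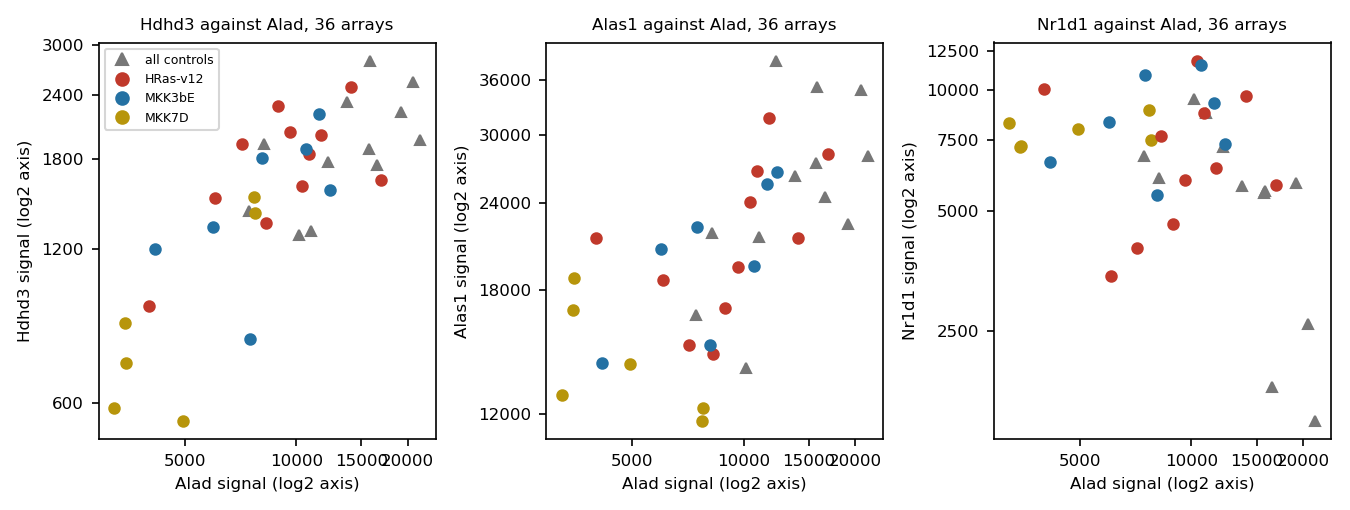
Signal of Hdhd3, Alas1 and the clock gene Nr1d1 (y axes) against that of Alad (x axes) in each of 36 arrays, all on log2 axes, with circles for the 3 lines and triangles for controls. Arrays low in Alad tend to be low in Hdhd3 (r = 0.79) and Alas1 (r = 0.66).

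Pole3, the neighbour on the other side, read 3869, 4743 and 4629 in early MKK7D arrays and 4235, 3963 and 3454 in their controls. The difference was 0.18 (SE 0.16), and the groups overlapped. In all 6 comparisons of a line with its control at a time, Pole3 lay between -0.09 and 0.18. Its dimmer probe sets differed from this and from each other in early HRas-v12 hearts, at 0.56 and -0.78, so its level there depends on the probe set. Its r with Alad over the 36 arrays was -0.11.

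Further genes along the chromosome were followed by their order. Of the 20 genes nearest Alad on both sides, 19 besides Hdhd3, 10 passed the filter. In early MKK7D hearts these 10 lay between -0.69 for Wdr31, a WD repeat protein, and 0.56 for Zfp37, a zinc finger protein, with a median of -0.16. None reached 1 in size, whereas Alad and Hdhd3 did. Bspry, which lies next to Hdhd3 on the side away from Alad, stood at -1.06, but its mean signal of 228 was below the filter. In late MKK7D hearts the 10 lay between -0.49 and 0.40.

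**Figure D3:**
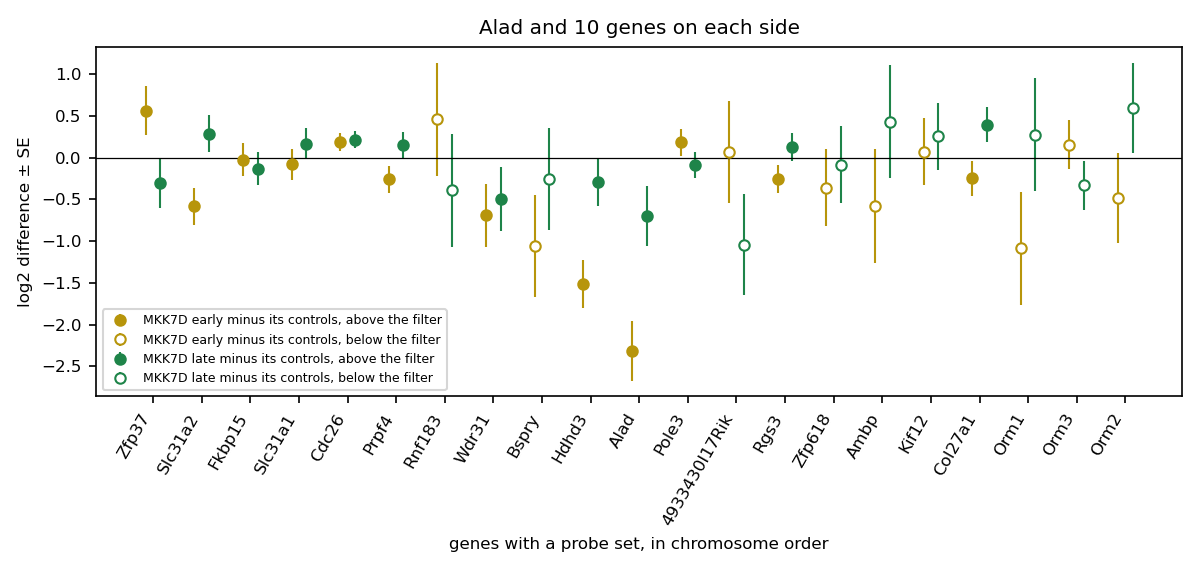
Log2 difference (y axis, bars are 1 SE) of Alad and its neighbours in MKK7D hearts minus their controls, early and late, with genes in chromosome order on the x axis and open circles for genes below the filter. Early, Alad (-2.31) and Hdhd3 (-1.51) are lowest, while Pole3 is at 0.18.

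Genes known to differ between inbred strains gave a further readout. Of the 6 on the list (Glo1, Nnt, H2-Ea, Ide, Fgfbp3 and Wdfy1), H2-Ea was below the filter and 5 were tested. In early MKK7D hearts against their controls 0 of the 5 were called by limma, beside 0.135% of all genes, and the differences ran from -0.44 (Nnt) to 0.65 (Wdfy1, adjusted p = 0.619). Glo1, a methylglyoxal-detoxifying enzyme, read 16313 ± 869 (SD, n = 3) in early MKK7D hearts and 17157 ± 1412 (SD, n = 3) in their controls. Nnt, a mitochondrial proton-pumping transhydrogenase that some C57BL/6 stocks lack in full length, read 70030 ± 7853 (SD, n = 3) and 95308 ± 12665 (SD, n = 3), a difference of -0.44 (limma adjusted p = 0.616) between groups that did not overlap, as for 12.1% of all genes in this direction. In early MKK7D controls against control females the differences of the 5 ran from -0.54 (Wdfy1, limma adjusted p = 0.555) to 0.50 (Glo1, adjusted p = 0.108). Whether the lines differ in strain background at the Alad locus was not tested.

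Among the 6 other heme enzymes, early HRas-v12 hearts showed the most changes. Uros, Urod and Ppox fell, 3 of the 6, beside 18.7% of all 12626 genes called lower in this comparison. All 6 differences were below 0, with a median of -0.45 against -0.04 for all genes. Urod, which removes carboxyl groups from the ring, fell by 0.51 (SE 0.12, limma adjusted p = 0.00143). Uros, which closes the ring, fell by 0.60 (SE 0.19, limma adjusted p = 0.0145). Ppox, which makes protoporphyrin, fell by 0.35 (SE 0.12, limma adjusted p = 0.0212).

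The same comparison left 3 enzymes above the threshold. Cpox, the enzyme before Ppox, stood at -0.68 (SE 0.28, limma adjusted p = 0.0578), Fech, the last enzyme, at -0.38 (SE 0.15, adjusted p = 0.0547) and Alas1, the first, at -0.39 (SE 0.19, adjusted p = 0.11). Without female early replicate 3 and the other doubted arrays 5 of the 6 fell, beside 22.7% of all genes called lower. Uros, Urod, Cpox, Fech and Alas1 then passed, with adjusted p from 1.85e-05 to 0.045, and Ppox did not (-0.29, adjusted p = 0.0813). The call of Uros ended without female early replicate 1, which leaves the doubted replicate 3 as the only early female. That of Ppox ended without male early replicate 1 (limma adjusted p = 0.0582) and with only the compared groups in the fit (adjusted p = 0.0553).

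The low signals were those of the early males. Urod read 9264, 9880 and 8930 in these 3 arrays and 16564, 17713 and 18649 in control males, with no overlap, as for 27.2% of all genes in this direction, and 14686 and 20395 in the early females against 17229 to 21723 in control females. Fech read 11963, 15298 and 13371 in the early males and 22584, 29064 and 21723 in control males, again with no overlap. Cpox read 1882, 2149 and 3181 against 6252, 5434 and 5814, and Uros 3640, 4109 and 4851 against 8430, 8913 and 9673. In the early females Uros was 7499 and 7636 and Cpox 5262 and 8061. The male minus female difference was -0.80 for Urod (95% interval -1.27 to -0.32, limma adjusted p = 0.078), -0.94 for Fech (adjusted p = 0.101), -1.01 for Uros (adjusted p = 0.144) and -1.25 for Cpox (adjusted p = 0.217), so none of these passed the threshold, beside 1.1% of all genes called. It also rests on female early replicate 3, whose driver readout was at control level.

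Other cell markers moved with these values. All 8 ventricular muscle markers fell in early HRas-v12 hearts (median -0.59), beside 18.7% of all genes called lower. The calls of Tnni3 and Ryr2, a troponin and the calcium release channel, ended without female early replicate 1. That fit keeps replicate 3, whose driver readout was at control level, as the only early female. The summed signal of the 8 muscle markers was 815195 to 967519 in the early males against 1230970 to 1363560 in control males. Of 7 macrophage markers 5 rose, beside 15.1% of all genes called higher, with a summed signal of 138252 to 172746 in the early males against 57967 to 77803. The call of these 5 also ended without female early replicate 1, in the fit that keeps only the doubted replicate 3 among the early females. Of 4 endothelial markers 3 fell (median -0.60), among them Kdr, a VEGF receptor, by 1.08 (limma adjusted p = 0.00016). Of 5 fibroblast markers 3 rose (median 0.68), among them Col1a1, a collagen chain, by 1.94 (limma adjusted p = 0.00154). The calls of all 3 fibroblast genes (Col1a1, Col1a2 and Pdgfra) and of the endothelial gene Tek ended without female early replicate 1 too. Those of the endothelial genes Cdh5 and Kdr held. Without the doubted arrays the medians were -0.72 for muscle, 1.05 for macrophage (0.73 with them), -0.73 for endothelial and 0.77 for fibroblast markers. Red cell markers, 6 of 11 with a probe set and 2 above the filter, summed to 1839 to 2314 in the early males, 4453 to 16843 in control males and 15171 to 16276 in the early females. The part of these markers in the enzyme differences was not tested. Alas2, the red cell form of Alas1 and the largest share of that sum, ranged from 1112 to 1189 in the early males, from 12980 to 14160 in the early females and from 2563 to 38614 in the shared controls, with a difference of -0.75 over both sexes (limma adjusted p = 0.236).

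**Figure D4:**
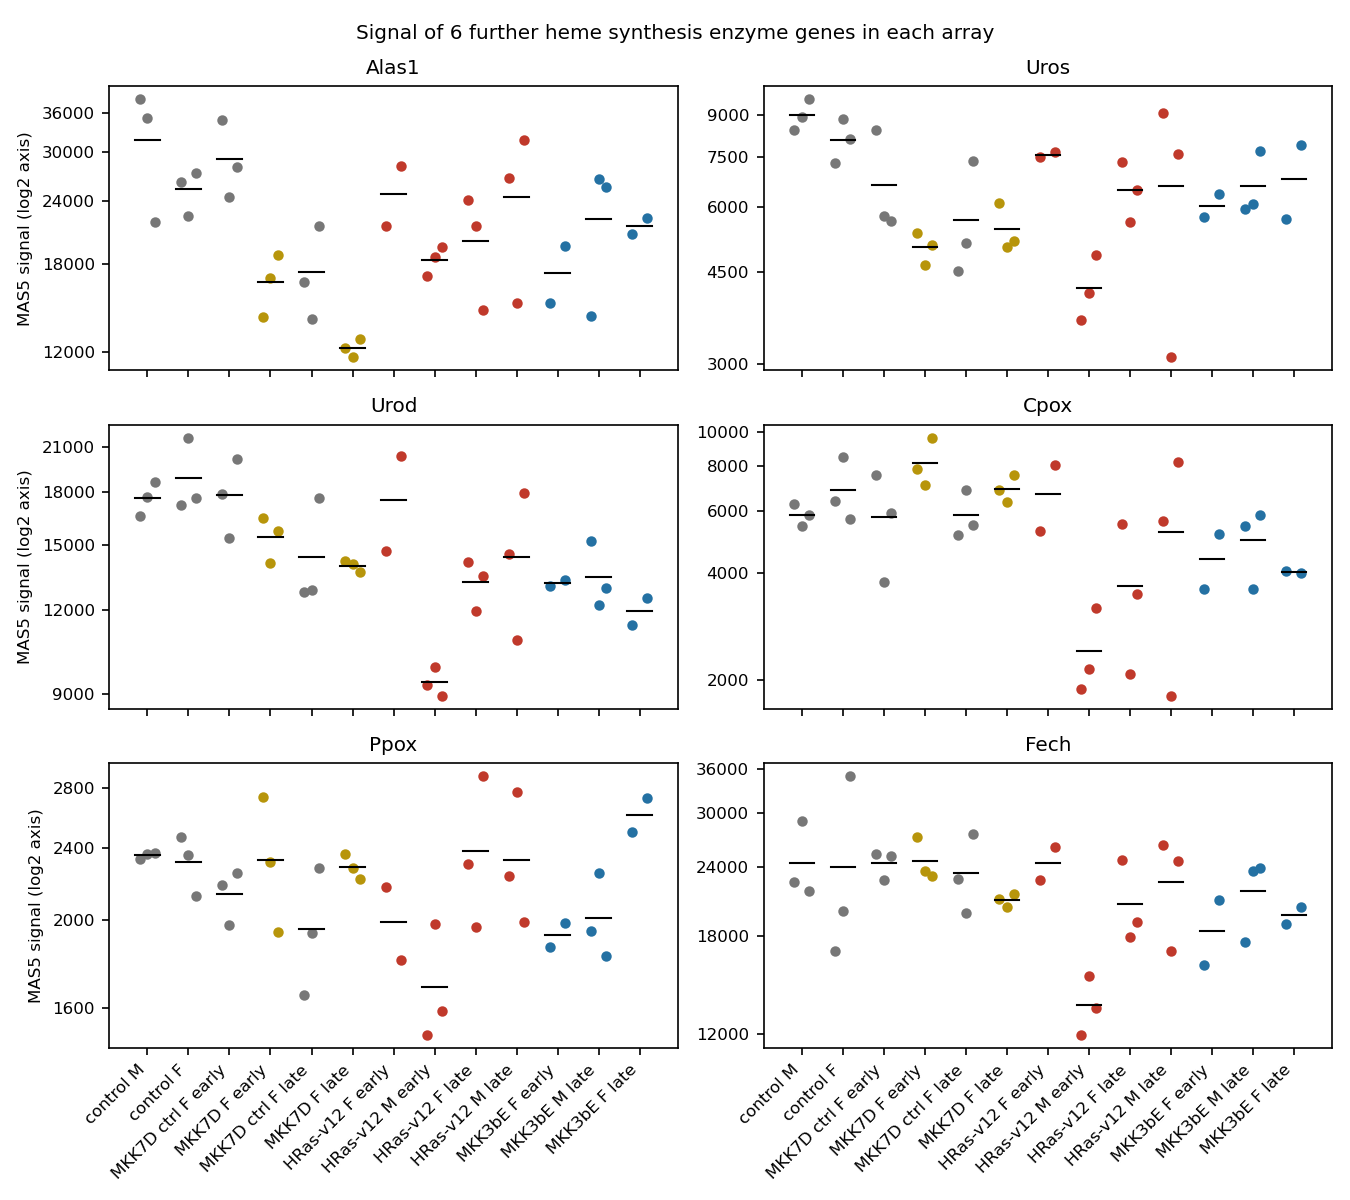
MAS5 signal (log2 axis) of the 6 other heme enzyme genes in each of the 36 arrays by group, with bars at group means. Early HRas-v12 males are lowest for Urod (8930 to 9880) and Fech (11963 to 15298), and late MKK7D arrays are lowest for Alas1 (11709 to 12754).

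In late HRas-v12 hearts Urod fell and the other 5 enzymes did not pass, beside 4.66% of all genes called lower. Urod read 14147, 11976 and 13517 in late females and 14554, 10817 and 17925 in late males. Its difference was -0.41 (SE 0.11, limma adjusted p = 0.0238). The call ended without late male replicate 3 (adjusted p = 0.0966), late female replicate 3 (0.0746) or control female replicate 1 (0.0631), and all doubted arrays left out gave -0.24 (adjusted p = 0.238) with 0 of the 6 called by limma, beside 0.578% of all genes called lower. Cpox stood at -0.70 (SE 0.26, adjusted p = 0.082) with a wide spread, from 1798 to 8240 in the males alone, and at -0.24 (adjusted p = 0.683) without the doubted arrays. Late male replicate 3, doubted for its Esr1 signal, had the lowest Urod (10817) of the late HRas-v12 arrays. It also had the lowest Uros (3089) and Cpox (1798) of all 36 arrays, so leaving it out removes these low values. Ppox was at 0.00 (SE 0.11). From early to late HRas-v12 hearts, Ppox rose by 0.35 (SE 0.12, limma adjusted p = 0.0496), beside 6.91% of all genes called higher, and by 0.18 (adjusted p = 0.423) without the doubted arrays, when Urod rose by 0.39 (adjusted p = 0.014, beside 14.3% of all genes called higher). Of the 8 ventricular muscle markers 6 also fell in late HRas-v12 hearts (median -0.38), and 0 were called by limma without the doubted arrays (median -0.31). Their part in the Urod difference was not tested.

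In MKK3bE hearts Urod was again the enzyme with the clearest change. Late, it read 11386 and 12519 in females and 15234, 12220 and 12932 in males, below all 6 shared control arrays (16564 to 21723), as for 5.69% of all genes. It fell by 0.52 (SE 0.12, limma adjusted p = 0.00509), 1 of the 6 enzymes, beside 5.39% of all genes called lower. The median of the 6 was -0.37. Leaving out the doubted arrays, none of which are in these groups, also brought Uros past the threshold (-0.36, adjusted p = 0.0169), with 11% of all genes called lower. Early, Urod read 13038 and 13303 in the 2 females, a difference of -0.51 (SE 0.17, limma adjusted p = 0.0726). Early 0 of the 6 were called by limma, with 1 at an unadjusted p under 0.05 (23.4% of all genes), beside 2.78% of all genes called lower. Urod passed without the doubted arrays (adjusted p = 0.00769), beside 8.47% of all genes called lower. Of 5 fibroblast markers 2 rose early (median 0.63, beside 3.48% of all genes called higher) and 3 late (median 0.74, beside 5.06%). In the main fit 0 of 8 ventricular muscle markers (median -0.36 early, -0.20 late) and 0 of 7 macrophage markers (0.33 early, 0.62 late) were called by limma. Without the doubted arrays some muscle markers were called lower at both times and some macrophage markers higher late. The part of these markers in the enzyme differences was not tested.

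In MKK7D hearts the enzymes around Alad gave another picture. In the early hearts 0 of the 6 were called by limma, with 1 at an unadjusted p under 0.05 (10.7% of all genes), beside 0.135% of all genes called. Alas1 read 14109, 16861 and 18764 in early MKK7D arrays and 34783, 24451 and 28039 in their controls. These groups did not overlap, which held for 12.1% of all genes in this direction, and the difference was -0.80 (95% interval -1.32 to -0.29, limma adjusted p = 0.181). It passed with only the compared groups in the fit (adjusted p = 0.0255). Cpox stood at 0.55 (SE 0.37, adjusted p = 0.623), Uros at -0.37 (adjusted p = 0.624, groups without overlap) and at -0.18 (0.684) without the doubted array, Urod at -0.20, Ppox at 0.11 and Fech at 0.01, and the median of the 6 was -0.10.

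Late MKK7D hearts had the lowest Alas1 signals of the series. The 3 arrays read 12230, 11709 and 12754, below each of the other 33 arrays, against 16574, 13942 and 21438 in late controls. The groups did not overlap, as for 5.53% of all genes in this direction, and the difference was -0.48 (limma adjusted p = 0.999). Without the doubted controls 8 and 9 it was -0.81 (limma adjusted p = 0.156), against 1 control array. None of the 6 enzymes was called late, 0 at an unadjusted p under 0.05 (5.09% of all genes), beside 0 of 12626 genes called. Alas1 was also lower in late than in early MKK7D controls, by -0.75 (SE 0.25, limma adjusted p = 0.191, with 0.0792% of all genes called), without overlap, and by -0.29 without the doubted arrays.

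**Figure D5:**
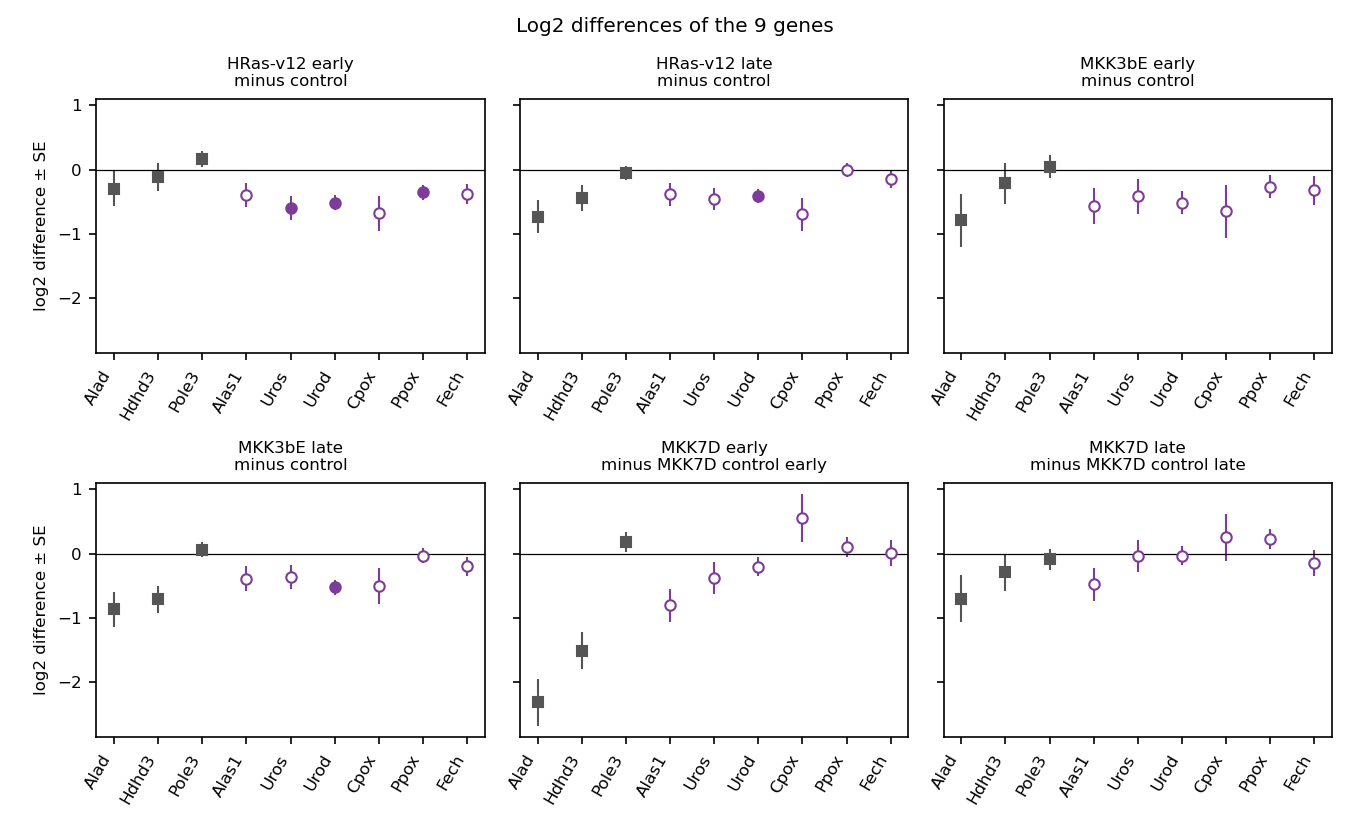
Log2 difference from control (bars are 1 SE) of the 9 genes in 6 comparisons of a line with its control at a time, with squares for genes that were not tested, filled circles for called genes and open circles for genes not called. Alad and Hdhd3 are lowest in early MKK7D hearts (-2.31 and -1.51), where Cpox is at 0.55, and all 6 other enzymes lie below 0 in the HRas-v12 and MKK3bE comparisons.

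The Cpox estimate was above 0 in early MKK7D and below 0 in early HRas-v12 hearts, with neither called in the main fit. Cpox read 7876, 7063 and 9636 in early MKK7D hearts and 7565, 3773 and 5887 in their controls, and these groups overlapped. The HRas-v12 difference was below that of MKK7D early by 1.23 (95% interval -2.17 to -0.29, limma adjusted p = 0.118), beside 2.93% of all genes called lower in that difference. Without the doubted arrays the gap was -1.61 and passed (adjusted p = 0.00584), beside 8.93% of all genes called lower.

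The correlation of Alad with the other enzymes over the 36 arrays, a description over arrays that share groups, was 0.66 for Alas1, which was 14th of 12625 genes by r, 0.52 for Uros, 0.45 for Urod, 0.31 for Fech, 0.15 for Cpox and -0.03 for Ppox. Urod and Cpox had an r of 0.75 and Urod and Fech of 0.69, while Hdhd3 had -0.14 with Cpox and 0.13 with Urod. The gene most like Alad was Idh1, the cytosolic isocitrate dehydrogenase, at 0.79, followed by Hdhd3 at 0.79, Mrm1 at 0.75, Tango2, Pyurf, Galm, Tmem143, Gmnn, Gys1 and Slc27a1 at 0.68. Of these 10 genes Hdhd3 was the only one on chromosome 4. The lowest r was that of Prkca, the kinase protein kinase C alpha, at -0.80, followed by Fam219a, Tgfb2, Fosl2 and 1500009L16Rik.

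Other genes of heme handling were counted in lists that were also chosen with results of these arrays known. Their counts in early HRas-v12 hearts stand beside 18.7% of all genes called lower and 15.1% called higher. There Hmox1, the stress-induced enzyme that opens the heme ring, rose by 2.02 (SE 0.40, limma adjusted p = 5e-04), 1 of 4 breakdown genes, and Nr1d2 and Bach1, repressors that are known to bind heme, fell among 7 regulators (-0.74 and -0.52, adjusted p = 0.000743 and 0.0106). Of 11 transport genes 2 rose and 6 fell (median -0.37), among them Abcg2, a porphyrin exporter, at 0.64 (adjusted p = 0.000197), Abcb6, a porphyrin transporter, at -0.78 (adjusted p = 0.000684) and Tspo, a mitochondrial outer membrane protein that binds porphyrins, at 1.25 (adjusted p = 0.00417). Of 12 iron supply genes 4 fell and 0 rose, such as Fth1, the ferritin heavy chain, at -0.35 (adjusted p = 0.00481). Of 8 heme use genes 5 fell and 0 rose, among them Cat, the heme enzyme catalase, at -0.82 (adjusted p = 0.000112), Cycs, cytochrome c, at -0.52 (adjusted p = 0.00086) and Mb, myoglobin, at -0.54 (adjusted p = 0.00104). Leaving out female early replicate 1 ended the calls of Tspo, Bach1 and all 4 iron supply genes. It also ended those of Slc25a39, Abcb10, Flvcr2 and Slc48a1 among the transport genes and of Cox10 among the heme use genes. That fit keeps the doubted replicate 3 as the only early female. Without the doubted arrays the differences were 1.69 for Tspo, -0.68 for Bach1, -0.45 for Fth1 and -0.54 for Cox10, each further from 0. Flvcr2 (-1.16) and Slc48a1 (-0.54) moved slightly towards 0. The shifts of muscle, macrophage, fibroblast and endothelial markers given above stand beside these lists too, and their part was not tested.

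In the other comparisons fewer genes of these lists changed. In late HRas-v12 hearts 1 of 11 transport genes rose (Tspo, 1.28, limma adjusted p = 0.0171, beside 4.86% of all genes called higher) and 2 fell. Of 12 iron supply genes 3 fell and of 8 heme use genes 4 fell, beside 4.66% of all genes called lower. Without the doubted arrays, which leaves 1 late male array, most of these 10 calls ended and each difference moved towards 0. Tspo was then at 0.73 and Cycs at -0.32. In late MKK3bE hearts Tspo rose (1.26, adjusted p = 0.0135, beside 5.06% of all genes called higher). There 2 of 11 transport, 2 of 12 iron supply and 1 of 8 heme use genes fell, beside 5.39% of all genes called lower. Those that fell were Slc25a39, a mitochondrial glutathione carrier, by 0.52 (adjusted p = 0.0104), Tmem14c, Glrx5, Aco1 and Cox10. Leaving out single arrays ended the calls of these genes other than Aco1 (adjusted p up to 0.146). Early MKK3bE hearts had 1 call, Tspo at 1.69 (adjusted p = 0.0334, and 0.251 without early replicate 1, beside 3.48% of all genes called higher). Leaving out the doubted arrays, none of which are MKK3bE or shared control arrays, left these MKK3bE differences as they were, with smaller adjusted p. More genes of the lists then passed in early and late MKK3bE hearts, as did more of all genes. In late MKK7D hearts 0 of the lists' genes were called by limma, as for all genes.

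In early MKK7D hearts 1 gene of these lists was called. Nr1d1, a heme-binding receptor and clock repressor that is known to act on heme synthesis genes, read 8009, 7229 and 7247 in early MKK7D arrays and 2601, 1807 and 1489 in their controls. It rose by 1.95 (SE 0.27, limma adjusted p = 0.000394, beside 0.0871% of all genes called higher), and by 2.17 without the control array of doubtful sex (adjusted p = 4.79e-05). Its early controls were also below control females (5536 to 5876), by -1.56 (adjusted p = 0.00702, beside 0.958% of all genes called lower), and below late MKK7D controls (6827, 9488 and 8750), by 2.09 (adjusted p = 7.13e-05). Chosen after their values were seen, Bhlhe40, a clock repressor that binds E-boxes, rose by 1.76 (adjusted p = 0.000394) and Cry1, a core clock repressor, fell by 1.32 (adjusted p = 0.0439, and 0.204 without control early replicate 3). Late MKK7D hearts gave -0.01 for Nr1d1 and -0.26 for Bhlhe40 (adjusted p = 0.999 each). Bhlhe40 was also called higher in HRas-v12 hearts (0.80 early, 0.78 late) and MKK3bE hearts (1.02 early, 0.92 late). The shares of all genes called higher there were 3.48% to 15.1%. Cry1 was also called lower in late HRas-v12 (-0.64, beside 4.66% of all genes) and late MKK3bE hearts (-0.73, beside 5.39%). Both of these Cry1 calls and the early MKK3bE call of Bhlhe40 ended in some fits without 1 array. The labels give no hour of harvest, and the part of these genes in the Alad and Hdhd3 differences was not tested.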

How the data were processed

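Left ventricle RNA was measured on 36 Affymetrix arrays. The authors deposited linear probe set intensity values. The submitters' processing notes name MAS5, with no version. The mean signal with 2% of probe sets trimmed at each end was equal on all arrays. Signals were taken as log2(signal + 32), the upper 60% of probe sets by mean were kept, and 1 probe set a gene, the brightest, was tested, for 12626 genes. A model with 13 group means over all arrays was fitted in limma 3.58.1 (R 4.3.3) with an intensity trend, tested on simulated data. P-values with an n under 10 are limma's, adjusted by Benjamini-Hochberg over all genes tested, and called under 0.05. Intervals are 95%. Where both sexes exist, a difference is the mean of both. Groups came from the titles, and the number of arrays limits the precision. Of 45101 probe sets 34958 had 1 symbol in the annotation table, updated through RefSeq, 932 several and 9211 none.

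The 9 genes and the lists were chosen with earlier results of these data known. Named are these 9 genes, up to 3 called genes of each list with the smallest adjusted p, the neighbours of Alad, the 10 genes with the highest and 5 with the lowest r to Alad, and the genes said to be chosen after their values were seen. Alternatives tried were the filter, the pseudocount, quantile normalization, a fit of every probe set, no trend and only the groups compared. Others were a replicate block, the doubted arrays left out and each array left out. Same-numbered replicates were not taken as pairs, as given in the closing section. Sequences are from RefSeq.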

Additional observations from a re-analysis of the deposited data

Results flagged for a closer look

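Cpox had every early MKK7D array on one side of its control mean and every early HRas-v12 male array on the other, and the log2 differences from control lay 1.86 apart. The same held for early MKK7D against early MKK3bE females (1.2 apart), for late MKK7D against late HRas-v12 females (1.23 apart) and for late MKK7D against late MKK3bE females (0.998 apart). In each pair MKK7D was above its control. These pairings by sex were not tested. The fitted difference between lines, with both sexes where present, was -1.23 for early HRas-v12 minus MKK7D (limma adjusted p = 0.118), -1.20 for early MKK3bE minus MKK7D (0.487), -0.95 for late HRas-v12 minus MKK7D (0.468) and -0.76 for late MKK3bE minus MKK7D (0.598). Without the doubted arrays these were -1.61 (0.00584), -1.43 (0.104), -0.57 (0.728) and -0.84 (0.605).

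Ppox was above its control in every late MKK3bE female array and below it in every late MKK3bE male array, 0.404 apart, and the male minus female difference was -0.40 (limma adjusted p = 0.994). Late MKK7D arrays were above their control for Ppox and late MKK3bE male arrays below theirs, 0.466 apart. That pairing was not tested, and over both sexes the late MKK3bE minus MKK7D difference was -0.26 (limma adjusted p = 0.671). Without the doubted late MKK7D controls 8 and 9 it was -0.03 (limma adjusted p = 0.99), and late MKK7D hearts differed from their 1 remaining control by 0.0022 (adjusted p = 0.999).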

How the results depend on the processing

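The counts of the 6 tested heme enzymes moved as follows. Without the doubted arrays 5 were called in early HRas-v12 hearts (3 in the main fit), 0 in late HRas-v12 (1), 1 in early MKK3bE (0) and 2 in late MKK3bE (1), and the Alad difference of late against early MKK7D controls was -0.785 (main -1.05). With only the compared groups in the fit 0 were called in late HRas-v12, 3 in late MKK3bE and 1 in early MKK7D hearts (0). Leaving out 1 array at a time gave 2 to 5 in early and 0 to 3 in late HRas-v12 hearts. The Alad difference then ranged from -2.48 to -2.23 in early MKK7D, -0.91 to -0.28 in late MKK7D, -1.0 to -0.61 in late MKK3bE, -0.98 to -0.59 in early MKK3bE, -0.87 to -0.53 in late HRas-v12 and -0.42 to -0.19 in early HRas-v12 hearts. No filter, a smaller or larger pseudocount, quantile normalization, a fit of every probe set and no trend changed no direction or call here. With every probe set in the fit each gene was still read at its brightest, so the dimmer probe sets were not checked by it. Over all genes the calls were 1202 in late HRas-v12 hearts, 0 with only the compared groups and 157 without the doubted arrays. They were 790, 1288 and 2074 in early MKK3bE, 1319, 2262 and 2581 in late MKK3bE, 17, 372 and 123 in early MKK7D and 0, 0 and 428 in late MKK7D hearts, by the same settings. The causes were not tested. The replicate block left each call of the 6 enzymes as it was, with 4225 genes called in early HRas-v12 hearts (4267 without it). Of 23 same-numbered pairs 4 had a correlation of deviations over 0.1 (median -0.00639), so the numbers did not pair the arrays.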
